A study of Homo sapiens with 11 samples.

Results

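A set of 10 genes of the SWI/SNF chromatin remodelling complexes was followed through 5 lists of Ikaros ChIP-seq peaks from B-cell acute lymphoblastic leukemia (B-ALL) lines. The genes were SMARCA4, SMARCA2, SMARCB1, SMARCC1, SMARCC2, SMARCD1, SMARCE1, ARID1A, ARID1B and ARID2, 10 of 20007 protein-coding genes in the annotation. A peak was counted for a gene where the deposited list named that gene, where the peak overlapped the gene body, or where it came within 1 kb (1000 bp) of one of the gene's transcription start sites (TSSs). These rules gave 232 peaks: 28 of 37448 in untreated JM1, 65 of 88692 in JM1 under CX-4945, 66 of 83563 in REH, 18 of 19652 in 697 and 55 of 70894 in Nalm6.

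ChIP-seq recovers the DNA bound by a protein with an antibody and sequences it, and a peak is a stretch where a caller found more reads than its background model allows. The 4 lines are established cultures of pre-B ALL cells, grown in RPMI1640 with 10% FBS. JM1 was profiled without treatment and after CX-4945 at 20 µM for 1 day (treated JM1), a compound which blocks the kinase CK2, REH and 697 were untreated, and Nalm6 had the same treatment with no untreated counterpart among the samples. The series held 11 libraries, 6 with Ikaros antibody and 5 inputs, and 1 peak list was analysed for each condition. No value below therefore has a replicate list beside it, and no test was possible. JM1 and REH libraries were made with a Bethyl antibody (A303-516A), and 697 and Nalm6 libraries with an affinity-purified anti-Ikaros antibody, so line and antibody cannot be told apart between these pairs. Median peak width ranged from 626 bp in 697 to 1195 bp in REH, and read depth was not analysed here.

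SWI/SNF complexes use ATP to slide or evict nucleosomes and so open DNA to transcription factors. Each complex carries an ATPase, either SMARCA4 (BRG1) or SMARCA2 (BRM). In canonical BAF and in PBAF it works with core subunits that include SMARCB1, SMARCC1, SMARCC2, SMARCD1 and SMARCE1, and ARID1A or ARID1B marks canonical BAF and ARID2 marks PBAF. A non-canonical form, marked by BRD9, lacks SMARCB1, SMARCE1 and the ARID subunits. Ikaros, the product of IKZF1, is a zinc finger protein of lymphoid cells that is known to associate both with SWI/SNF and with the NuRD repressor complex. Its core binding sequence is TGGGAA, read as TTCCCA on the opposite strand. The lists say where Ikaros peaks lay at the genes for these subunits and carry no measure of the subunits' expression.

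Peaks overlapping between lists were merged into 100 sites, and for each gene the site within 1 kb of the TSS of its Ensembl canonical transcript was taken as the main promoter. The sequences of the sites that the results turn on are given here as the plus strand of GRCh38, each from the interval covered by the most lists, in its longest stretch free of untranslated exons and up to 300 bases. Capitals in the next 5 mark GGGCGG or CCGCCC, the GC box on either strand, with overlapping matches run together. The SMARCA4 stretch (chr19:10960740-10960931) lay just upstream of the gene and inside the peaks of all 5 lists. The SMARCC2 stretch (chr12:56189030-56189329), also in all 5, fell in intron 1. The SMARCB1 stretch (chr22:23787170-23787413) ran from coding exon 1 into intron 1 and was covered in every list except untreated JM1. SMARCA2 had a second recurrent site (chr9:2047122-2047228) at the end of intron 4, in 4 lists. ARID1B had a site deep in intron 4 (chr6:157021195-157021494) with peaks in all 5 lists, of which 4 covered the stretch. At both sites the peaks lay within 1 kb of another annotated TSS of the gene.
SMARCA4 promoter: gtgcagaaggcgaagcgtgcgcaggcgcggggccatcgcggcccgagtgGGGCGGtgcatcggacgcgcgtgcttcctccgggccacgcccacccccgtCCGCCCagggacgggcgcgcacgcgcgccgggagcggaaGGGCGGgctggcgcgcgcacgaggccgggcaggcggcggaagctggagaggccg
SMARCC2 promoter: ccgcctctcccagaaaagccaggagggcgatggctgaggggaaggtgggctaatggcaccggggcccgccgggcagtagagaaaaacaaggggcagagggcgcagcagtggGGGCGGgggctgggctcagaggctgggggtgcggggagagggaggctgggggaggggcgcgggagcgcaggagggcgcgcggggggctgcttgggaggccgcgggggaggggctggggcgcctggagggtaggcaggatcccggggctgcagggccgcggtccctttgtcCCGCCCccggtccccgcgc
SMARCB1 promoter: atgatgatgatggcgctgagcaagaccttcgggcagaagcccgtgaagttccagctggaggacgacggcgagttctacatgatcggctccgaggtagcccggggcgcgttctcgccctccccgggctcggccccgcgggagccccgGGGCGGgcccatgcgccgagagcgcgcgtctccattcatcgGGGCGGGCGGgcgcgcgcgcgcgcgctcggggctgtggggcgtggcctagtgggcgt
SMARCA2 intron 4: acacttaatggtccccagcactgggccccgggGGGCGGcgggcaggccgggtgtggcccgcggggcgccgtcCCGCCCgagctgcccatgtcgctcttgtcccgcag
ARID1B intron 4: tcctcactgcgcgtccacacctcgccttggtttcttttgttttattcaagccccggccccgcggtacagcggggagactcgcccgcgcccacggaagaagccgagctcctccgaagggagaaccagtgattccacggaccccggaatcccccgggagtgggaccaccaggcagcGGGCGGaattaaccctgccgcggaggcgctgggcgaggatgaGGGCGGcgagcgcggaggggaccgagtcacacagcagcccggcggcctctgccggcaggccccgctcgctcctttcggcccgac

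In the main promoter stretches of the 10 genes the GC box was matched in 8 and the Ikaros core in 2. In the 23 stretches of other sites found in 3 or more lists, the GC box was matched in 4 and the Ikaros core in 5. These stretches differ in length and so have no background of their own. Capitals in the next 3 mark TGGGAA or TTCCCA. The SMARCA2 promoter stretch (chr9:2016632-2016931) lay in intron 1 and was covered in all 5 lists. A SMARCA4 stretch near the 3′ end of the gene (chr19:11060188-11060366, intron 34) was also covered in all 5. An ARID1B stretch in intron 3 (chr6:156913700-156913999), covered in treated JM1, REH and Nalm6, held 3 matches in a repeated sequence.
SMARCA2 promoter: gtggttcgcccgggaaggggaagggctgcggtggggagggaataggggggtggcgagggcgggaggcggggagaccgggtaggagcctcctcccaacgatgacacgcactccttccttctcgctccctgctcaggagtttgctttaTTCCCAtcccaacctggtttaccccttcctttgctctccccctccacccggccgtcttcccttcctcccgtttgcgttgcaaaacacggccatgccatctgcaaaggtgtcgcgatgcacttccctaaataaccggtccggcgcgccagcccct
SMARCA4 intron 34: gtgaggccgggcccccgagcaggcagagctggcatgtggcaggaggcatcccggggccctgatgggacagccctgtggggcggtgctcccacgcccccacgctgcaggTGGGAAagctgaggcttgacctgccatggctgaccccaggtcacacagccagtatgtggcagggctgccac
ARID1B intron 3: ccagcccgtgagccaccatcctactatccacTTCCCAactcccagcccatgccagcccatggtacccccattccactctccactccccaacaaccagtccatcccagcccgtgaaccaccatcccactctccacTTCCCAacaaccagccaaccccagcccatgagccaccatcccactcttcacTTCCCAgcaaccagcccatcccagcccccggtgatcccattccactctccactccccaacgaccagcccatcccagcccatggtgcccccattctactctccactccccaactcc

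Every one of the 10 genes had a peak within 1 kb of some annotated TSS in every list. The same rule was met by 58.8% of all protein-coding genes in untreated JM1, 81.3% in JM1 under CX-4945, 81.9% in REH, 49.5% in 697 and 74.4% in Nalm6. These genes offer many TSSs to that rule, with a median of 18 annotated TSSs a gene against 5 over all protein-coding genes, and a median length of 103.7 kb against 27.5 kb. With the canonical TSS alone, 9 of 10 had a peak in untreated JM1, against 53.2% of all genes. In treated JM1 it was 10 of 10 against 78.1%, in REH 10 of 10 against 78.9%, in 697 9 of 10 against 45.1%, and in Nalm6 10 of 10 against 70.0%. The gene without such a peak was SMARCB1 in untreated JM1 and SMARCA2 in 697. For SMARCA2 the 697 peak began 1130 bp from the canonical TSS and belonged to the same merged promoter site as the other lists' peaks. A canonical TSS peak in all 5 lists was found for 8 of the 10 genes and for 36.2% of all genes.

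Score values in the lists are whole numbers assigned by the authors, and they are not on 1 scale between lists. Each is therefore given with its percentile within its own list, which is the share of that list's peaks with a lower score, ties counted at their middle rank. Where the canonical TSS had a peak, the members' median percentile was 93.0 in untreated JM1 against 70.8 for all protein-coding genes with one. It was 97.6 against 89.6 in treated JM1, 97.3 against 88.9 in REH, 79.9 against 68.2 in 697 and 89.0 against 85.2 in Nalm6. The members' median thus lay above that of all genes in all 5 lists, by the least in Nalm6. Single members lay below the gene median in untreated JM1, 697 and Nalm6. With the SMARCA2 promoter peak of 697 included, which lay beyond 1 kb of its canonical TSS, the 697 median was 76.8. At or above percentile 95 stood 4 members in untreated JM1, 7 in JM1 under CX-4945, 8 in REH, 1 in 697 and 1 in Nalm6. Of all genes with a canonical TSS peak, 11.6%, 27.9%, 25.6%, 9.23% and 20.55% stood there.

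**Figure D1:**
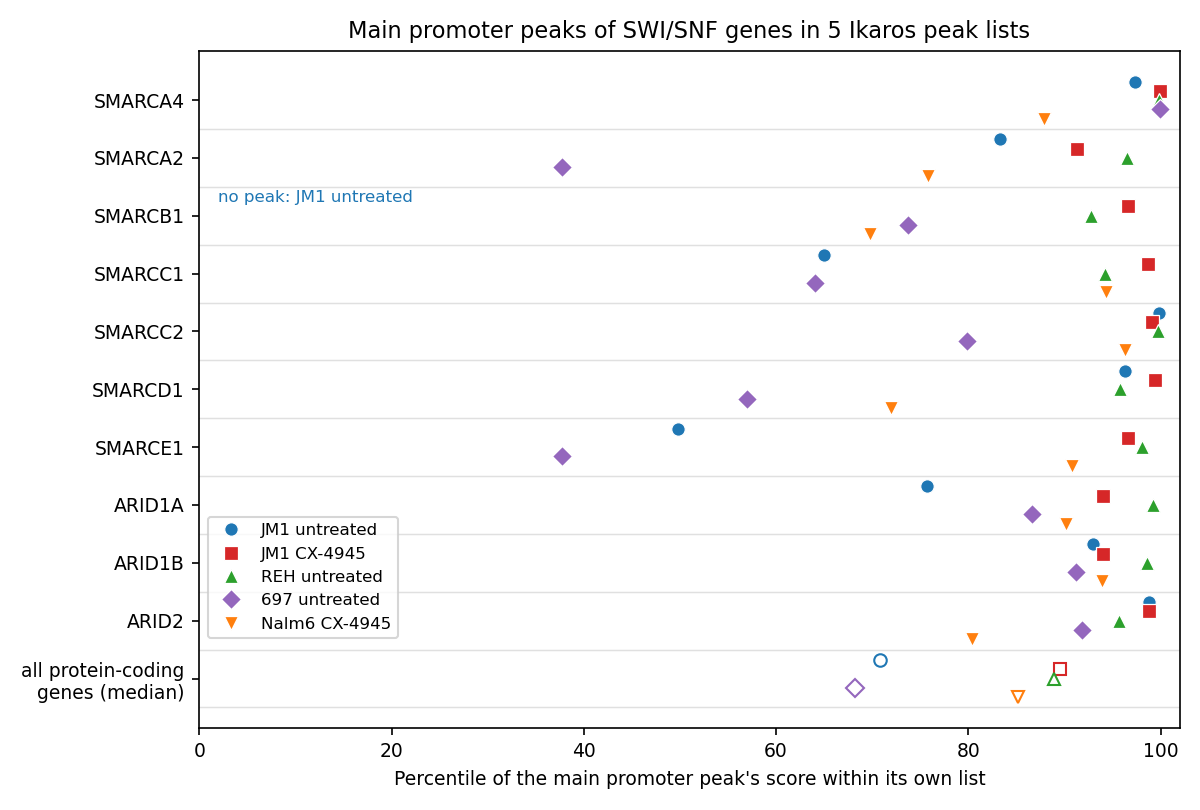
Within-list score percentile (x axis, 0 to 100) of the main promoter peak of each of the 10 genes in each of the 5 lists, 1 marker a list, with open markers for the median over all protein-coding genes with a canonical TSS peak. SMARCA4 sits at 97.3 or above in 4 lists and at 87.9 in Nalm6, and SMARCB1 has no main promoter peak in untreated JM1.

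Of the 2 ATPase genes, SMARCA4 had the higher-scored promoter peak in each list. The SMARCA4 promoter peak (GRCh38 chromosome 19, canonical TSS at 10961030, plus strand) had a score of 32 in untreated JM1, 486 in JM1 under CX-4945, 157 in REH, 129 in 697 and 40 in Nalm6. In rank it stood 927th of 37448 in untreated JM1, 17th of 88692 in JM1 under CX-4945, 140th of 83563 in REH, 10th of 19652 in 697 and 8288th of 70894 in Nalm6. Its percentiles were 97.3, 99.98, 99.8, 99.9 and 87.9 in that order, so it was near the top of 4 lists and lower in Nalm6. The peaks were 909 to 3441 bp wide and shared an interval of 828 bp across the TSS.

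The SMARCA2 promoter peak (chromosome 9, canonical TSS at 2015347, plus strand) had scores of 21, 38, 76, 19 and 30 in untreated JM1, treated JM1, REH, 697 and Nalm6. The percentiles were 83.3, 91.3, 96.5, 37.7 and 75.8, below those of SMARCA4 in every list. The shared interval, from 2016477 to 2017367, lay wholly downstream of the canonical TSS. In untreated JM1 and 697 the peak covered that downstream part alone, whereas in treated JM1, REH and Nalm6 it was 3031 to 3493 bp wide and spanned the TSS.

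The other SMARCA2 site lay at the boundary of intron 4 and exon 5, 31.8 kb into the gene and at another of its TSSs. It had a peak in treated JM1, REH, 697 and Nalm6. Its score was 14 (percentile 26.0) in JM1 under CX-4945, 29 (72.6) in REH, 46 (89.1) in 697 and 54 (95.4) in Nalm6. In 697 and Nalm6 this site scored above the gene's main promoter, at 46 against 19 and 54 against 30, and in treated JM1 and REH below it. These 2 lists are also those of the affinity-purified antibody, whose part in the order was not tested. The authors' annotation gave this site to AL359076.1 and not to SMARCA2. The stretch printed above held 2 GC boxes in 107 bases and no match to the Ikaros core.

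Among the core subunit genes SMARCC2 stood highest in untreated JM1 and SMARCB1 had no main promoter peak there. SMARCC2, a scaffold subunit (chromosome 12, canonical TSS at 56189483, minus strand), had promoter scores of 62, 98, 148, 37 and 57 in untreated JM1, treated JM1, REH, 697 and Nalm6. These stood at percentiles 99.8, 99.1, 99.8, 79.9 and 96.3, with rank 59 in untreated JM1 and 186 in REH. In REH the file named AC073896.4 for this peak, so a search by gene name would miss it.

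Its paralogue SMARCC1 (chromosome 3, canonical TSS at 47781893, minus strand) had promoter scores of 17, 85, 62, 28 and 51 in the same order of lists. The percentiles were 65.0, 98.7, 94.3, 64.1 and 94.3, so the gene was high in treated JM1, REH and Nalm6 and in the middle of the other lists. In untreated JM1 the pair thus stood at 99.8 and 65.0, and in treated JM1 at 99.1 and 98.7.

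SMARCB1, the core subunit also called INI1 or SNF5 and lost in rhabdoid tumours, lies on chromosome 22 with its canonical TSS at 23786966, plus strand. Its main promoter had no peak in untreated JM1, a score of 58 (percentile 96.6) in JM1 under CX-4945, 56 (92.7) in REH, 33 (73.7) in 697 and 27 (69.8) in Nalm6. It was the only member with a canonical TSS peak in treated JM1 and none in untreated JM1, a pattern shown by 25.5% of all protein-coding genes. The peaks of untreated JM1 at this gene lay further in. The nearest, with a score of 10 (percentile 1.91), was centred 5.51 kb downstream in intron 2 and was the lowest score the lists hold.

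SMARCD1, a BAF60 subunit that contacts transcription factors (chromosome 12, canonical TSS at 50085342), had promoter scores of 30, 117, 71, 25 and 28 in untreated JM1, treated JM1, REH, 697 and Nalm6. The percentiles of 96.3, 99.5, 95.8, 56.9 and 72.0 placed it high in both JM1 lists and REH and lower in 697 and Nalm6. SMARCE1, the HMG-box subunit BAF57 (chromosome 17, canonical TSS at 40647818, minus strand), had scores of 15, 58, 92, 19 and 44. Its percentiles were 49.8, 96.6, 98.1, 37.7 and 90.8, the lowest of the members with a main promoter peak in untreated JM1. The REH and Nalm6 files named AC073508.3 for this peak.

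The ARID genes had peaks at their main promoters in all 5 lists. ARID1A (chromosome 1, canonical TSS at 26696015, plus strand) had scores of 19, 45, 114, 43 and 43 in untreated JM1, treated JM1, REH, 697 and Nalm6. The percentiles were 75.7, 94.0, 99.2, 86.7 and 90.2. All its promoter peaks were at least 2286 bp wide and were classed as exonic by the authors.

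ARID1B, the paralogue that takes the same place in BAF (chromosome 6, canonical TSS at 156777378, plus strand), had scores of 26, 45, 100, 49 and 50. Its percentiles of 93.0, 94.0, 98.6, 91.3 and 93.9 had the narrowest range of the 10 genes. ARID2, the PBAF subunit (chromosome 12, canonical TSS at 45729706, plus strand), had scores of 38, 88, 70, 50 and 33 at percentiles 98.8, 98.8, 95.7, 91.8 and 80.4. The 3 ARID genes and SMARCA4 were the members at percentile 86.7 or above in 697, where the other 6 stood between 37.7 and 79.9.

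Away from the main promoters the sites were less often shared. Of the 100 sites, 13 had a peak in all 5 lists, 12 in 4, 9 in 3, 20 in 2 and 46 in 1. The main promoters made up 9 of the 13, and the others were at SMARCA4 (2 sites) and ARID1B (2 sites). Of the sites in 1 list, 17 were in REH, 14 in treated JM1, 11 in Nalm6, 4 in untreated JM1 and 0 in 697. All but 1 of the 18 sites of the shortest list, 697, also had peaks in REH and both treated lists. The exception was around ARID1B intron 17 and lacked a treated JM1 peak. These counts were not made over all merged sites of the 5 lists. They are therefore not shown to be particular to these genes, and the lists differ in length.

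**Figure D2:**
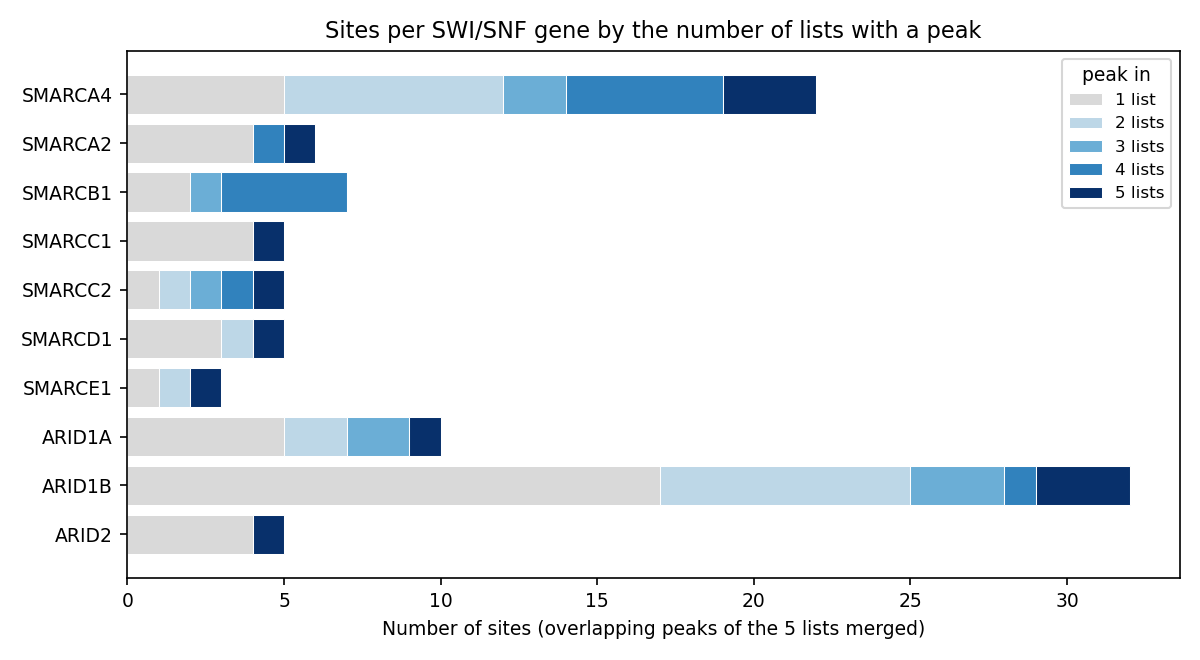
Number of merged sites for each gene (x axis), split by how many of the 5 lists had a peak there. ARID1B has 32 sites, of which 17 were in 1 list, and SMARCA4 has 22, of which 5 were in 1 list.

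SMARCA4 and ARID1B held 54 of the 100 sites but differed in how those sites recurred. At SMARCA4, 10 of 22 sites had a peak in 3 or more lists, and at ARID1B 7 of 32. The same share was not counted over other genes. SMARCA4 spans 118.5 kb and ARID1B 434.8 kb, the longest of the 10 genes. Peaks over the SMARCA4 body numbered 6.75 per 100 kb in untreated JM1, 14.3 in JM1 under CX-4945, 14.3 in REH, 3.38 in 697 and 13.5 in Nalm6. Over all protein-coding genes the values were 2.225, 4.56, 4.39, 1.29 and 3.83, so SMARCA4 lay above them in every list. ARID1B had 0.690, 2.76, 4.37, 0.920 and 3.22 per 100 kb. These lay below the level of all genes, though in REH the values were nearly equal (4.37 against 4.39).

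A SMARCA4 site over introns 3 and 4 and exon 4, about 25.2 kb into the gene, had a peak in every list. Its scores were 15 (percentile 49.8) in untreated JM1, 22 (68.4) in JM1 under CX-4945, 38 (84.5) in REH, 19 (37.7) in 697 and 34 (81.8) in Nalm6. The peak was 3838 to 4969 bp wide in 4 lists and 524 bp wide in 697. The site near the 3′ end also had a peak in every list, the highest at a score of 29 (percentile 83.7) in treated JM1 and the lowest at 16 (26.0) in 697. In every list both sites had a peak within 1 kb of another annotated TSS of SMARCA4. Between these sites lay further peaks, up to 9079 bp wide in treated JM1, 10272 bp in REH and 4841 bp in Nalm6. In untreated JM1 the peaks there were narrower, at 407 to 1823 bp. None of the SMARCA4 peaks outside the main promoter stood above percentile 86.7.

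At ARID1B the site in intron 4, 243.8 kb from the canonical TSS, lay within 1 kb of another annotated TSS of the gene. This site matched the promoter in score in REH. It scored 101 there (percentile 98.65) against 100 at the promoter, and 45 (94.0) in treated JM1 against 45. It was weaker in the other lists, with scores of 12 (18.2) in untreated JM1, 15 (21.5) in 697 and 24 (62.0) in Nalm6. The 697 peak did not reach the untreated JM1 peak, so no interval was common to all 5 lists. The authors gave this site to AL162578.1. A second site in all lists lay 10.4 kb past the end of the gene, with scores of 23 (88.3), 37 (90.8), 37 (83.6), 23 (51.4) and 13 (13.4) in untreated JM1, treated JM1, REH, 697 and Nalm6. That site counted for ARID1B through the gene name in the files alone.

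**Figure D3:**
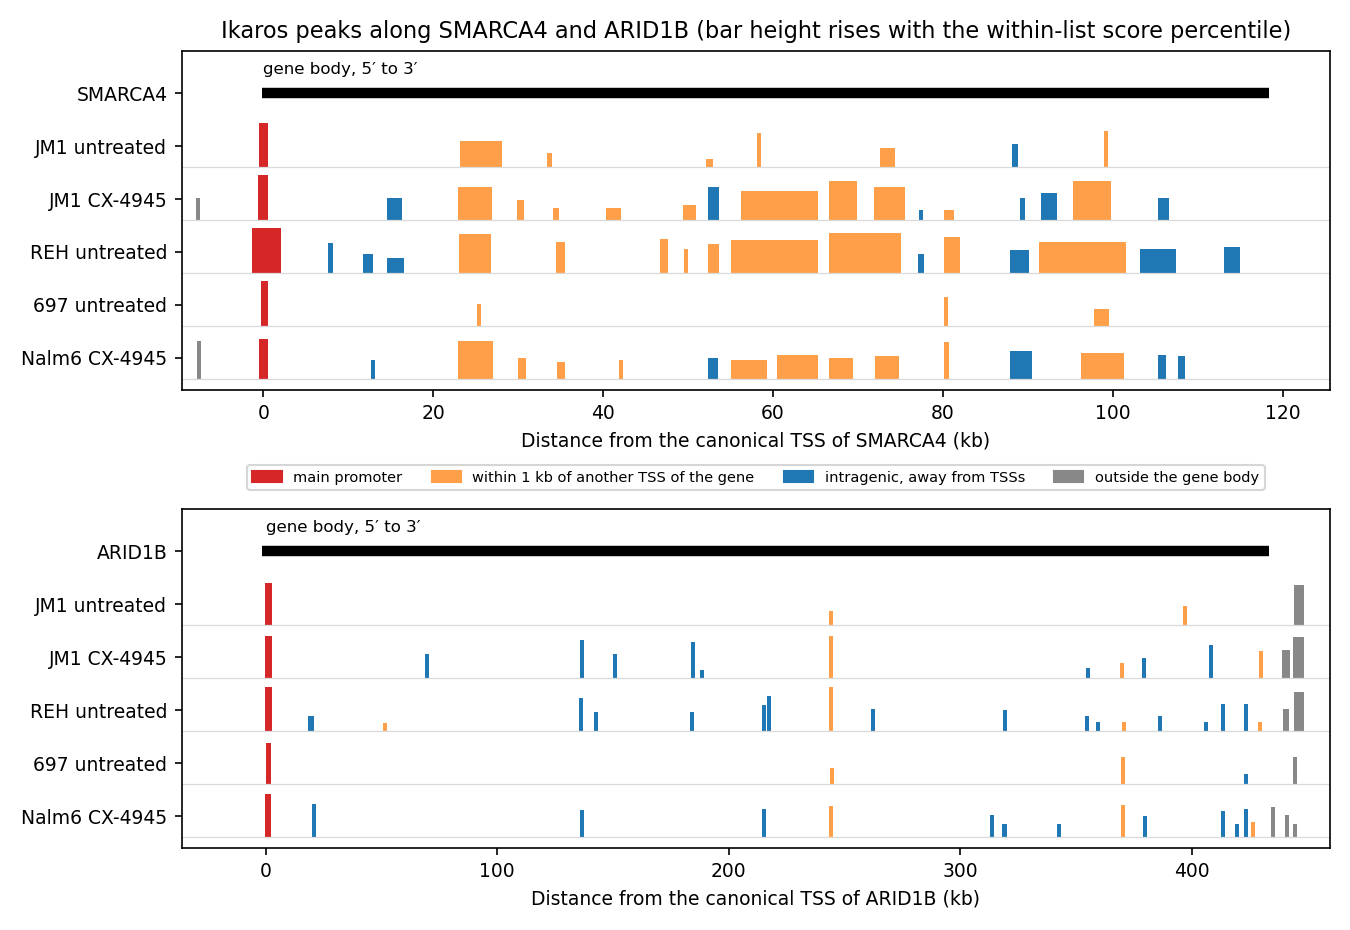
Peaks along SMARCA4 and ARID1B in each list by distance from the canonical TSS in kb, coloured by place, with bar height rising with the within-list percentile and narrow peaks drawn at a fixed least width. The SMARCA4 body carries peaks along most of its length in treated JM1, REH and Nalm6, whereas ARID1B peaks lie apart, with the intron 4 site near 243.8 kb in all 5 lists.

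Recurrent sites away from the main promoter were fewer at the other genes. SMARCB1 had 4 such sites in 3 or more lists, SMARCC2 had 2, ARID1A had 2 and SMARCA2 had the site described above, while SMARCC1, SMARCD1, SMARCE1 and ARID2 had none. The ARID1A site upstream of its main promoter was found in untreated JM1 (score 20, percentile 79.9), treated JM1 (13, 18.8) and REH (73, 96.1), the 3 lists of the Bethyl antibody, and not in 697 or Nalm6. It was named for AL512408.1 in the files. At the 3′ end of SMARCB1, peaks of 5310 to 8008 bp in both JM1 lists, REH and Nalm6 reached the TSS of DERL3 and were given to that gene. A treated JM1 peak of 14563 bp at the 3′ end of SMARCC2 likewise reached the TSSs of MYL6 and MYL6B.

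Intragenic peaks beyond 1 kb of any TSS of the gene numbered 5 in untreated JM1, 25 in JM1 under CX-4945, 30 in REH, 1 in 697 and 24 in Nalm6. With each list held to its 19652 top-scored peaks, the length of the shortest list, the counts were 2, 3, 1, 1 and 0 in that order, so the differences between the lists did not hold at equal length. At least 1 such peak was found in 3 of 10 members in untreated JM1 against 29.6% of all genes, and in 7 of 10 in treated JM1 against 47.6%. It was 8 of 10 in REH against 45.2%, 1 of 10 in 697 against 16.8%, and 7 of 10 in Nalm6 against 42.6%. Counted per length, these intragenic peaks came to 0.371 per 100 kb in untreated JM1, 1.85 in JM1 under CX-4945, 2.225 in REH, 0.074 in 697 and 1.78 in Nalm6. Over all protein-coding genes they came to 1.07, 2.71, 2.53, 0.428 and 2.18, so the 10 genes together lay below that level in every list. The length used was the whole gene, stretches near its TSSs included, so this density also depends on the number of TSSs. The members had more annotated TSSs (median 18 against 5) and were longer (103.7 kb against 27.5 kb). The part of TSS number in the lower density was not tested. All peaks over the 10 gene bodies, those near a TSS included, came to 2.00 per 100 kb in untreated JM1, 4.45 in JM1 under CX-4945, 4.75 in REH, 1.26 in 697 and 3.635 in Nalm6. These were close to the values of all protein-coding genes given above, at 2.225, 4.56, 4.39, 1.29 and 3.83. The members differed widely among themselves, from 0.469 at SMARCA2 in untreated JM1 to 25.8 at SMARCD1 in REH. SMARCD1 is 15.5 kb long, and its REH value rests on 4 peaks.

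**Figure D4:**
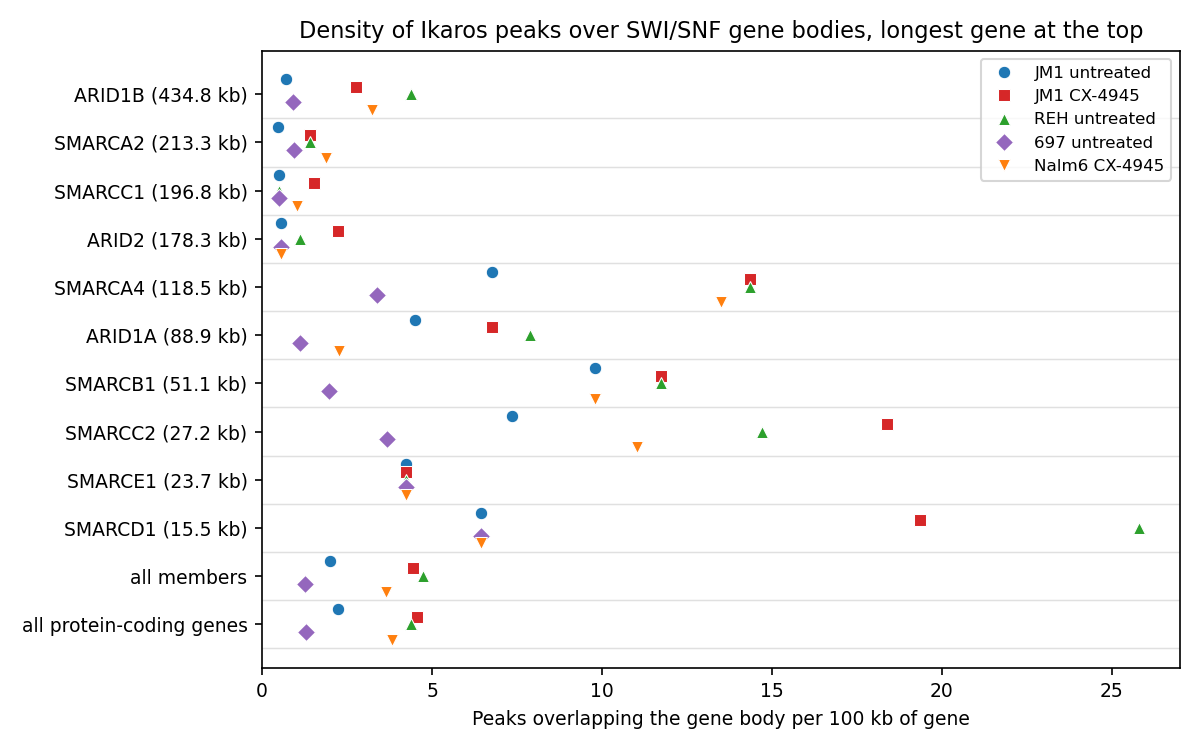
Peaks overlapping each gene body per 100 kb (x axis) in the 5 lists, genes ordered by length, with the level over the 10 members and over all protein-coding genes at the foot. SMARCA4 lies to the right of all genes in every list, while SMARCA2, SMARCC1 and ARID2 lie to the left.

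JM1 was the line with and without CX-4945, with 1 list each. Of 28 untreated member peaks, 22 were overlapped by a treated peak by at least 1 bp (78.6%, 95% exact Clopper-Pearson interval 59.1 to 91.7%), against 84.1% of all untreated peaks. The interval covers counting error only. By place, 9 of 9 main promoter peaks, 11 of 13 peaks near another TSS and 1 of 5 intragenic peaks were overlapped, and 1 of 1 outside the gene body. The overlapped intragenic peak, at the 3′ end of SMARCB1, reached the TSS of DERL3. Shares by place were not computed over all untreated peaks, so these counts have no background. The 6 without a treated counterpart had scores of 12 to 18 and lay at SMARCA4 (2 peaks), SMARCB1 (2 peaks), ARID1A and ARID1B.

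In the other direction 23 of 65 treated member peaks were overlapped by an untreated one (35.4%), against 29.0% of all treated peaks. Of the 42 treated peaks without an untreated counterpart, 24 were overlapped by a REH peak and 17 by a Nalm6 peak, shares of 57.1% and 40.5% against 53.9% and 36.4% over all treated peaks of that kind. For the 9 members with a canonical TSS peak in both JM1 lists, the percentile was higher in the treated list for 8, with a median difference of 3.11 points. Over the 10516 protein-coding genes with both, the median difference was 15.02 points and 79.9% were higher in the treated list. In the untreated list these members already stood at a median of 93.0, against 70.8 for all genes with a canonical TSS peak there. Whether this higher start had a part in the members' smaller difference was not tested. The lists also differ in length, so these percentile differences do not measure a change in binding. At SMARCC2 the percentile was lower in the treated list, at 99.1 against 99.8. Sites with a peak in both treated lists and in no untreated list numbered 5 of 100, at SMARCA4, SMARCE1 and ARID1B, against 2.81% of the 123130 sites made by merging all peaks of the 5 lists. With no untreated Nalm6 list, line and treatment cannot be told apart there.

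Short motifs were counted beside the share of all windows of the same length. RefSeq promoter windows (GRCh38.p14, 250 bases before to 50 after the start) were matched for 7 of the 10 genes. The Ikaros core TGGGAA, on either strand, was in 3 of 7 against 22.6% of 15345 promoters. The GC box GGGCGG was in 6 of 7 against 59.2%, CCGGAA, the core of ETS factor sites, in 3 of 7 against 23.1%, and CCAAT in 3 of 7 against 36.6%. SMARCA4 had 5 GC boxes in this window, at a GC content of 81.3%, and the median over the 7 was 66.7% against 63.0% over all. The ARID1B window, which supplied 1 of the 3 TGGGAA matches and 1 of the 3 CCAAT matches, lay upstream of the canonical TSS, at a GC content of 37.7%, and no list had a peak over it.

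Away from main promoters, windows of 300 bases at the middle of the 24 sites in 3 or more lists held TGGGAA in 7 and GGGCGG in 6. At the centres of all non-promoter peaks TGGGAA was in 20.2 to 28.5% and GGGCGG in 15 to 48.2%, depending on the list. That background leaves out peaks of the authors' promoter class. The 24 sites leave out the main promoters alone and include some with peaks of that class or near another TSS. The sets therefore differ, here and for repeated sequence below. A match is a string of letters and not a measured binding position. Repeated sequence was measured as the highest share of bases equal to the base a fixed distance of 10 to 150 bases on. Both sites above 60% by this measure were in ARID1B, in intron 3 (63.5% at 103 bases) and in intron 7 (92.4% at 64 bases), and the other 22 ranged from 32.3 to 50.4%. Among all non-promoter peaks, windows at or above 60% made up 1.84% in untreated JM1, 1.49% in JM1 under CX-4945, 1.63% in REH, 6.03% in 697 and 2.29% in Nalm6. Whether repeated sequence has a part in these peaks was not tested. The intron 7 site had a peak in treated JM1 (score 13, percentile 18.8), REH (12, 4.85), 697 (23, 51.4) and Nalm6 (25, 64.85).

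The remaining subunits of the complexes, a list of 19 genes, had canonical TSS peaks nearly throughout. They numbered 18 of 19 in untreated JM1 and 19 of 19 in each of the other lists, with median percentiles of 88.3, 96.7, 95.2, 82.4 and 93.5 in untreated JM1, treated JM1, REH, 697 and Nalm6. The exception was DPF2, a histone-reading BAF subunit, which had no peak in untreated JM1, a score of 152 (99.75) in JM1 under CX-4945, 103 (98.8) in REH, 24 (54.2) in 697 and 26 (67.4) in Nalm6. SMARCB1 likewise lacked a canonical TSS peak in untreated JM1 and had one in the other 4 lists. After DPF2, the highest percentiles in treated JM1 belonged to BCL7B, a small BAF subunit, at a score of 136, and ACTL6A, an actin-related subunit, at 134. BCL7B had scores of 23 (88.3), 62 (94.3), 72 (98.2) and 56 (96.05) in untreated JM1, REH, 697 and Nalm6, and ACTL6A had 55 (99.75), 96 (98.4), 26 (59.4) and 60 (97.1).

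A second list held 9 ATPase genes of other remodeller families: SMARCA1, SMARCA5, INO80, SRCAP, EP400, CHD1, CHD2, ATRX and HELLS. A canonical TSS peak was found in 5 of 9 in untreated JM1, 9 in JM1 under CX-4945, 8 in REH, 6 in 697 and 6 in Nalm6. The shares over all protein-coding genes were 53.2%, 78.1%, 78.9%, 45.1% and 70.0%. Median percentiles of those ATPase genes with a peak were 70.8, 92.6, 95.1, 78.3 and 91.6 in the same order. CHD2, ATRX and HELLS were without a canonical TSS peak in untreated JM1, 697 and Nalm6. By the sum over the 5 lists of absolute differences in percentile of the top peak near any TSS, the genes most like SMARCA4 were PIGX (1.82), RASSF3 (3.58) and RBPJ (5.92). For SMARCA2, whose top peak is the intron 4 site in 697 and Nalm6, they were SEMA4C (5.29), ITGB2 (6.12) and ABL1 (6.57).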

How the data were processed

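Ikaros ChIP-seq peaks of 5 conditions were analysed as deposited. Bowtie2 2.3.4.3, MACS2 2.1.1, HOMER 4.10 and GRCh38 are named per the submitters' processing notes, and BBDuk read trimming per the labels' protocols. Not given in the sources used here: call settings, control and the definition of that score. Peaks carry coordinates, an integer score, a genomic class and a gene name, all set by the authors before deposit, per the file headers. No score was below 10. Nalm6 had 2 Ikaros libraries, and the sources do not say which gave its list.

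Lists were matched to groups by the line and treatment in their names. Positions were set against GENCODE release 44 with pandas 2.3.3 and numpy 2.4.6, and the interval code was tested on simulated data. Overlap was at least 1 bp. The members and gene lists were chosen with earlier results of these data known, and main promoter sites were defined after the peaks had been seen. All members are named, as are the other subunits without a TSS peak in some list and the 3 highest in treated JM1. With 1 list a condition there was no replicate list, and no p-value was computed. The alternatives were other windows, assignment by name, top-scored peaks and other percentiles.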

Additional observations from a re-analysis of the deposited data

How the results depend on the processing

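All 10 members had a peak near some TSS in every list, a count that stayed within 1.5 times that in 39 of 40 recounts. The exception was 697 by the authors' promoter class and gene name, with 6. That rule also gave fewer in the other lists, at 9, 8, 7 and 7 in untreated JM1, treated JM1, REH and Nalm6. The canonical TSS alone combined with lists held to 19652 top-scored peaks, chosen after seeing the data, gave 9, 10, 10, 9 and 9 in untreated JM1, treated JM1, REH, 697 and Nalm6.

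Intragenic peak numbers depended on the list used. Assigned by the gene name in the file they were 3 in untreated JM1, 14 in treated JM1 and 19 in REH. With 19652 top-scored peaks they were 2, 3, 1 and 0 in untreated JM1, treated JM1, REH and Nalm6, and with scores at or above the list's median 2, 11, 10, 0 and 8 in untreated JM1, treated JM1, REH, 697 and Nalm6. By construction the last 2 settings hold fewer peaks. The 22 untreated JM1 member peaks overlapped by a treated peak became 11 with a reciprocal overlap of 50%, and 12 of 17 with top-scored peaks.

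The median percentile of the top peak near any TSS was 88.13, 97.63, 97.31, 83.28 and 90.46 in untreated JM1, treated JM1, REH, 697 and Nalm6. Among promoter-class peaks alone it was 78.05, 89.12, 88.74, 74.78 and 74.17. With ties left out, so that lower scores alone counted, it was 87.06 in untreated JM1, 82.7 in 697 and 90.15 in Nalm6. With the canonical TSS alone, an alternative chosen after seeing the data, it was 93, 79.91 and 89.03 in the same 3 lists. No paired analysis was possible because each condition had 1 list and no result comes from a test. Depth could not be assessed from peak lists, and a site missing from a list is not shown to be unbound.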
